A study of Mus musculus with 6 samples.

Results

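Transcripts of 41 genes for lysosomal enzymes, lysosomal membrane proteins and their regulators were followed in LSECs, the liver sinusoidal endothelial cells, whose thin perforated walls line the small blood channels of the liver. The 41 were listed by gene symbol and not filtered by their values, although earlier results of these data were known when they were chosen. Each symbol was found in 1 of the 34745 rows of the deposited table. The libraries came from Tgfbr2f/f mice (called f/f here, titled WT) and from mice labelled Tgfbr2 ECKO, an endothelial-specific knockout of the type II TGF-beta receptor gene, with 3 libraries per genotype. Littermates served as the f/f group per the series' design text, and all mice, the f/f group included, had received the hepatotoxin carbon tetrachloride (CCl4) intraperitoneally for 6 weeks, 2 injections per week. The Cre driver, the deleted exons, the animals' age and the way the LSECs were isolated are not stated in the labels or the design text. Nothing in the labels ties a library to its own animal, so p-values measure the spread between these libraries.

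Lysosomes are acidic organelles in which proteases, glycosidases, sulfatases and lipases break down material delivered by endocytosis and autophagy. LSECs are among the most active scavenger cells of the body and send large amounts of endocytosed matrix fragments, including glycosaminoglycans and collagen chains, to this compartment. Most soluble lysosomal enzymes carry mannose 6-phosphate and travel on its receptors, while the membrane proteins LAMP1, LAMP2 and LIMP-2 line the organelle. The transcription factor TFEB activates many of these genes through CLEAR elements, which contain the letters CACGTG.

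The 3 promoters below show the gene that changed, Scarb2, beside 2 members that carry the CACGTG core, Mcoln1 and Ctsd. Each runs 5′ to 3′ on the gene's strand from 250 bases before to 50 bases after the RefSeq start on GRCm38.p6, and capitals mark CACGTG. Their windows are chr5:92505608-92505907 on the minus strand (Scarb2), chr8:3500269-3500568 on the plus strand (Mcoln1) and chr7:142387778-142388077 on the minus strand (Ctsd).
Scarb2: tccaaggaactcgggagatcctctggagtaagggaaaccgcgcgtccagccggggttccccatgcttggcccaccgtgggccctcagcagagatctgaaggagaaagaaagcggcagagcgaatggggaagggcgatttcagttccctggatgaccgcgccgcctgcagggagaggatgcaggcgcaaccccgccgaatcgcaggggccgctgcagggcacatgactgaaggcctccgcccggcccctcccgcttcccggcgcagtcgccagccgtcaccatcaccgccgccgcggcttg
Mcoln1: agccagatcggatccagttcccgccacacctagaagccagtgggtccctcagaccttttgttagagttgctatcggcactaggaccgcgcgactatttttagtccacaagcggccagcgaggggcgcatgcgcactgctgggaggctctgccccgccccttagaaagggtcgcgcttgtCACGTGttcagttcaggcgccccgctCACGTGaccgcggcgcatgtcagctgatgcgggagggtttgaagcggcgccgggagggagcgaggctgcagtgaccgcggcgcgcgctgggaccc
Ctsd: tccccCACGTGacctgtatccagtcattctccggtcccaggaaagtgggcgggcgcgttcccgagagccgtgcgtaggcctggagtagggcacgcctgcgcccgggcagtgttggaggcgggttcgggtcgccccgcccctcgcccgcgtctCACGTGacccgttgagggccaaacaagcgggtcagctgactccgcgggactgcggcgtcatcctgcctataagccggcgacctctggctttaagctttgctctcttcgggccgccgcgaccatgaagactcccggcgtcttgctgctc
The Mcoln1 window holds the core 71 and 45 bases before the start, and the Ctsd window 245 and 98 bases before it. The Scarb2 window does not hold these 6 letters. On the minus strand the deposited Scarb2 row begins at 92506833, upstream of this window, and the bases around that start were not searched.

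The RefSeq promoter table matched 37 of the 41 members; Npc1, Ctsb, Ctsh and Asah1 had no entry. CACGTG, which reads the same on both strands, stood in at least 1 window of 13 of the 37 (35.1%), against 2187 of 27025 genes in the table (8.09%). The 13 were Lamp1, Mcoln1, Ctsa, Ctsd, Ctsf, Ctsl, Lgmn, Gaa, Gla, Glb1, Sgsh, Naglu and Arsa. Lamp1 held 4 copies, 61, 45, 28 and 15 bases before its start. The longer TCACGTGA, which contains the core, stood in 4 of the 37 (10.8%) and in 1.12% of all genes. A form of 10 letters, which extends TCACGTGA at both ends, stood in 0 of the 37 and in 0.37% of all genes. These matches describe the letters and are no evidence of binding.

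Library totals ranged from 17171850 to 25062755 counts. Levels are given below as CPM, counts scaled to a common library total, with TMM factors that adjust this total for composition. Values per library are in the order of replicates 1, 2 and 3. The targeted gene, Tgfbr2, did not pass (log2 fold change 0.22, adjusted p = 0.228). Its mean was higher, not lower, in ECKO (427 ± 35.1 CPM in f/f, 499 ± 12.1 CPM in ECKO). It held 387, 442 and 452 CPM in f/f and 498, 487 and 511 CPM in ECKO, without overlap. The values are per gene and the deleted exons are not stated, so the deletion itself was not tested. All 14 LSEC markers passed the filter on low counts, with summed levels of 28504 to 33229 CPM in f/f and 31484 to 37096 CPM in ECKO. Stab2 and Lyve1, defining receptors of LSECs, ranged from 2610 to 3654 and from 775 to 1275 CPM over the 6 libraries. Markers of other cells were present as well: 12 hepatocyte markers summed to 1053 to 1833 CPM in f/f and 1054 to 1953 CPM in ECKO, and 16 stellate cell markers to 1625 to 2961 and 656 to 892 CPM. The 5 cholangiocyte markers summed to 28.2 to 73 CPM in f/f and 17.4 to 24.5 CPM in ECKO, with a median log2 fold change of -1.24 and none called. The mitochondrial genome took 11.5% to 23.5% of counts in f/f and 19.7% to 32.4% in ECKO.

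Of the 41 members, 1 rose in the libraries labelled ECKO, Scarb2, and none fell. All 41 had passed the filter on low counts. Among all 13692 tested genes 4.03% were called, 1.24% higher and 2.79% lower (edgeR quasi-likelihood test, Benjamini-Hochberg adjusted p under 0.05 over all tested genes), so 1 of 41 is a share near the background. At an unadjusted p under 0.05 stood 3 members (7.32%; Scarb2, Ctss and Ctsc), against 23.5% of all tested genes. The other 38 did not reach that level, and their differences are given with intervals.

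Most of the members' differences were small. Their median log2 fold change was 0.08, against 0.01 over all tested genes, and 33 of the 41 (80.5%) lay within 0.25 of 0, against 53.5% of all tested genes. The 95% interval of the log2 fold change stayed between -1 and 1 for 37 members (90.2%), and for 70.2% of all tested genes. The 4 members whose interval reached beyond a 2-fold change were Ctss, Ctsc, Ctsh and Sgsh. The members also stood at higher levels than most genes, with a median of 86.4 CPM against 18.9 CPM, and their median coefficient of variation was 7.99% in f/f and 8% in ECKO, against 12.5% and 13.9%.

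The direction of these small differences depended on scaling. With TMM, 30 members had a positive log2 fold change and 11 a negative one, whereas under total count scaling the split was 5 and 36, and on FPKM 6 and 35. Total count scaling moved the median of all tested genes to -0.22. Measured from that median, 30 members lay above it, with a median of 0.06. This count was 19, with a median of -0.008, on FPKM with a pseudocount of 1, and 23 with TMM when f/f replicate 1 was left out. The plot of members' changes with intervals shows both scalings.

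**Figure D1:**
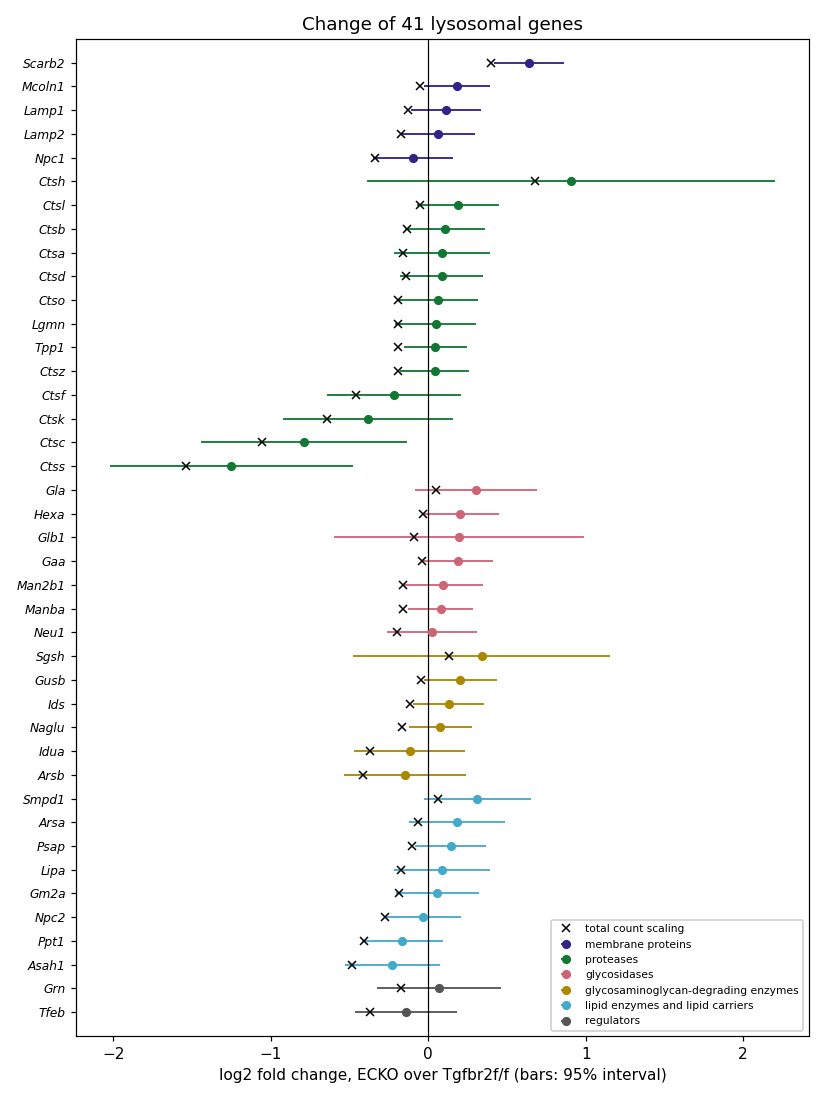
Log2 fold change (ECKO over f/f) of the 41 members by role, with 95% intervals from the edgeR fit as bars and the total count scaling estimate as crosses. Scarb2, at 0.64, is the member whose adjusted p passed; the cross lies to the left of the point for each member, and left of 0 for 36 of the 41.

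Among the membrane proteins, Scarb2 encodes LIMP-2, which spans the lysosomal membrane and carries the enzyme glucocerebrosidase to lysosomes. It lies in the table as ENSMUSG00000029426, chromosome 5, 92441314 to 92506833 on mm10/GRCm38, minus strand. Its level was 516, 562 and 526 CPM in f/f and 809, 873 and 817 CPM in ECKO. All 3 ECKO libraries stood above all 3 f/f libraries, with no overlap, as 15.7% of all tested genes did in that direction and 30.9% in either. The means were 535 ± 24.3 CPM in f/f and 833 ± 34.7 CPM in ECKO (mean ± SD, n = 3 each), a 1.56-fold rise (95% interval 1.34 to 1.81; log2 fold change 0.64, SE 0.09, adjusted p = 0.0178). The part of the mix of cells in the level of Scarb2 was not tested.

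The call on Scarb2 was not kept in every setting, although the direction was. Without f/f replicate 3, ECKO replicate 1 or ECKO replicate 3 the adjusted p was 0.105, 0.0772 and 0.0708, with log2 fold changes of 0.64, 0.67 and 0.66. Total count scaling put its log2 fold change at 0.40 (adjusted p = 0.157), which is 0.625 above the median of all genes in that fit, against 0.626 with TMM. DESeq2 called it with an adjusted p of 4.38e-08, and limma-voom with 0.0222. On FPKM the estimate was 0.40 (log2) with either pseudocount and the gene was not called (limma adjusted p = 0.201 with 0.1 and 0.208 with 1).

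The plot of levels by library shows Scarb2 beside the members with the largest differences or the widest spread.

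**Figure D2:**
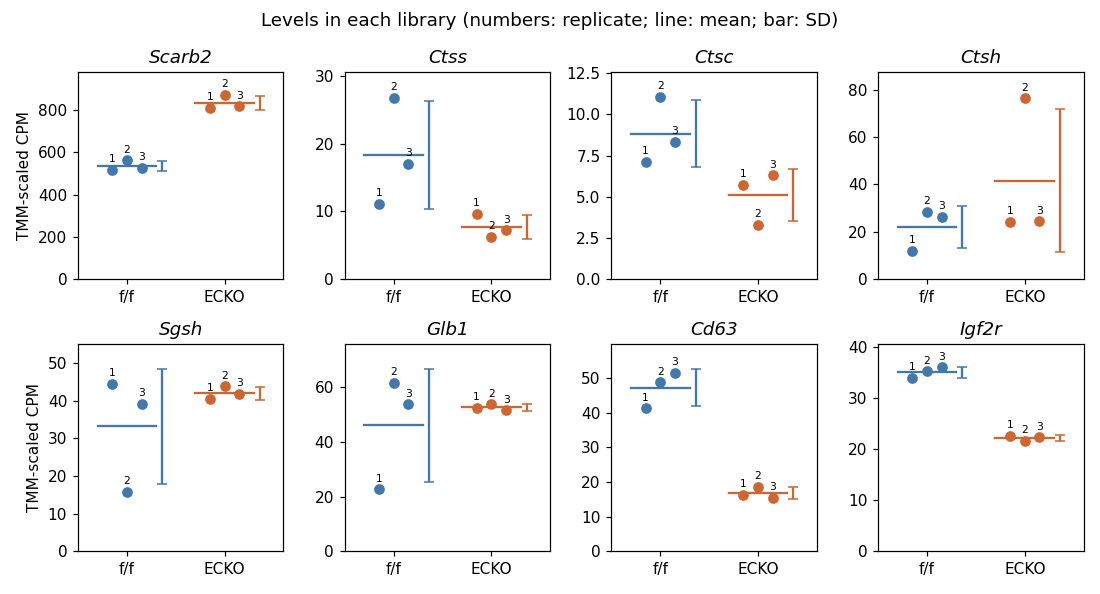
TMM-scaled CPM in each library (points numbered by replicate), group mean (line) and SD (bar to the right of each group) for Scarb2, Ctss, Ctsc, Ctsh, Sgsh, Glb1 and for Cd63 and Igf2r, which are not among the 41. Scarb2, Cd63 and Igf2r separate the groups with narrow spread, while single libraries stand apart in Ctsh, Sgsh and Glb1.

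The other membrane proteins did not pass. Lamp1, the most abundant of them per length, held 879, 948 and 884 CPM in f/f and 939, 1026 and 966 CPM in ECKO, so that the groups overlapped (1.08-fold, interval 0.93 to 1.26, adjusted p = 0.509). Lamp2, which also serves chaperone-mediated autophagy, held 936, 878 and 869 CPM in f/f and 939, 863 and 1003 CPM in ECKO, also with overlap (1.05-fold, interval 0.89 to 1.23, adjusted p = 0.732). Both intervals stop short of the 1.56-fold estimate for Scarb2. Mcoln1, the calcium channel of the lysosomal membrane, held 45.8, 41.9 and 47.1 CPM in f/f and 50.6, 50.8 and 51.6 CPM in ECKO; its ECKO libraries all stood above f/f, by 1.14-fold (interval 0.98 to 1.32, adjusted p = 0.271). Npc1, which exports cholesterol from lysosomes, held 50.3 ± 4.66 CPM in f/f and 47.1 ± 3.26 CPM in ECKO (adjusted p = 0.622).

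Of the 13 proteases, none passed, and their median log2 fold change was 0.05. Most are cathepsins, and the abundant endopeptidases of this set lay close together in both groups. Ctsl, a cysteine protease, held 1518, 1540 and 1369 CPM in f/f and 1663, 1543 and 1837 CPM in ECKO (1.14-fold, interval 0.95 to 1.37, adjusted p = 0.348). Ctsb, another cysteine protease, held 1375, 1533 and 1447 CPM in f/f and 1435, 1547 and 1705 CPM in ECKO (1.08-fold, interval 0.9 to 1.28). Ctsd, the aspartic protease, held 1014, 1054 and 931 CPM in f/f and 963, 1176 and 1045 CPM in ECKO (1.06-fold, interval 0.88 to 1.27). The ECKO libraries of Ctsl all stood above f/f, by a small margin, while Ctsb and Ctsd overlapped.

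Lgmn, the asparaginyl endopeptidase that processes cathepsins, overlapped as well (1.03-fold, interval 0.86 to 1.23), and so did the exopeptidase Tpp1 (1.03-fold, interval 0.9 to 1.19), Ctsz (1.03-fold, interval 0.88 to 1.2), Ctso (1.05-fold, interval 0.88 to 1.25) and Ctsa, the protective protein of galactosidase and neuraminidase (1.06-fold, interval 0.86 to 1.31). Ctsf, a cysteine cathepsin, had an estimate of 0.86-fold (interval 0.64 to 1.15). The adjusted p of these 6 ranged from 0.501 to 0.824.

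The 2 members that stood lowest in ECKO were Ctss and Ctsc, cathepsins that are prominent in immune cells. Ctss, which trims the invariant chain of MHC class II, lies on chromosome 3, 95526786 to 95556403, plus strand. It held 11.1, 26.8 and 17.1 CPM in f/f and 9.65, 6.22 and 7.22 CPM in ECKO, with no overlap but with f/f replicate 1 close to the ECKO range (log2 fold change -1.25, SE 0.33, adjusted p = 0.0806). Ctsc, dipeptidyl peptidase 1, which activates granule serine proteases, lies on chromosome 7, 88278085 to 88310888, plus strand. It held 7.11, 11.1 and 8.33 CPM in f/f and 5.73, 3.31 and 6.31 CPM in ECKO, again without overlap (log2 fold change -0.79, SE 0.28, adjusted p = 0.150). In the direction lower in ECKO, 15.2% of all tested genes had groups that did not overlap.

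Whether Ctss counted as a call depended on the setting. DESeq2 gave an adjusted p of 0.00389, total count scaling 0.0267 and the fit without f/f replicate 1 an adjusted p of 0.0196 with a log2 fold change of -1.50. Without f/f replicate 2, the highest library, the log2 fold change was -0.88 (adjusted p = 0.139). Ctsc passed under total count scaling alone (log2 fold change -1.06, adjusted p = 0.0476).

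The leukocyte marker lists differed among themselves in how they compared between the groups. The 11 markers of monocytes and scar macrophages summed to 241 to 680 CPM in f/f and 167 to 220 CPM in ECKO. Among the 7 of them tested, none of which was called, the median was -1.61 (log2). Their sum rests largely on Spp1, at 1836 to 10782 counts per library, against 431 to 1420 for Plac8 and 182 to 1338 for Lyz2. Itgam was at 0 in 2 ECKO libraries, Trem2 in 1, and Chil3 in 1 library of each group. Of 8 markers of B and plasma cells 7 were tested and 4 fell. The 8 B and plasma cell markers summed to 25.8 to 57.4 CPM in f/f and 8.37 to 16.8 CPM in ECKO. Mzb1 was at 0 in all 3 ECKO libraries. The 13 Kupffer cell markers, none of them at 0, summed to 60.7 to 128 CPM in f/f and 73.0 to 103 CPM in ECKO, with none of 11 tested called. Of 9 neutrophil markers 3 were tested and 1 fell, with sums of 14.7 to 25.7 CPM in f/f and 1.34 to 5.13 CPM in ECKO. Of 8 dendritic cell markers 3 were tested, of which Clec9a rose and none fell, with log2 fold changes from -2.325 to 0.748. The 8 summed to 194 to 259 CPM in f/f and 213 to 219 CPM in ECKO. That sum rests largely on Zbtb46, at 2847 to 5717 counts per library, against 320 to 493 for Clec9a and 1 to 47 for Itgax. Of 9 T and NK cell markers 1 was tested and not called, with sums of 1.97 to 3.78 CPM in f/f and 2.35 to 4.66 CPM in ECKO. The part of these cells in the values of Ctss and Ctsc was not tested, and in these bulk libraries fewer cells of a type and less RNA per cell cannot be told apart.

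Ctsk, a collagen-degrading cathepsin known from osteoclasts and fibroblasts, held 8.91, 13.4 and 14.2 CPM in f/f and 9.92, 10.9 and 7.17 CPM in ECKO. The groups overlapped (0.77-fold, interval 0.53 to 1.11, adjusted p = 0.353). In the same libraries 8 of 16 stellate cell markers fell, with a median of -1.11 and none at 0. The part of these or other cells in the level of Ctsk was not tested.

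Ctsh, an aminopeptidase of the cathepsin family, had the largest positive estimate and the widest interval. It held 12.04, 28.3 and 26.3 CPM in f/f and 24.1, 76.3 and 24.4 CPM in ECKO, with overlap (log2 fold change 0.91, SE 0.54, adjusted p = 0.354). ECKO replicate 2 stood more than 2-fold above every other library and f/f replicate 1 more than 2-fold below every other, while the other 4 libraries lay between 24.1 and 28.3 CPM.

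The 7 glycosidases, which trim sugars from glycoproteins, glycolipids and glycogen, all had positive estimates with TMM, from 0.02 to 0.30, and none passed; under total count scaling 6 of the 7 turned negative. Gaa, the acid glucosidase of glycogen breakdown, held 142, 136 and 139 CPM in f/f and 149, 172 and 154 CPM in ECKO, with all ECKO libraries above f/f (1.14-fold, interval 0.98 to 1.33, adjusted p = 0.271). Hexa, the alpha subunit of hexosaminidase, held 169, 195 and 179 CPM in f/f and 190, 222 and 213 CPM in ECKO, with overlap (1.15-fold, interval 0.97 to 1.36, adjusted p = 0.288). Gla, the galactosidase that clears globotriaosylceramide, had an estimate of 1.23-fold (interval 0.94 to 1.61), and Man2b1, Manba and Neu1, an alpha-mannosidase, a beta-mannosidase and a sialidase, had 1.07, 1.06 and 1.02-fold.

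Glb1, the acid beta-galactosidase, differed within the f/f group more than between the groups. It held 22.7, 61.7 and 53.8 CPM in f/f and 52.5, 53.9 and 51.5 CPM in ECKO. The 3 ECKO libraries lay between 51.5 and 53.9 CPM, and f/f replicate 1 lay more than 2-fold below every other library. The estimate was 0.19 (SE 0.33, adjusted p = 0.757), and it turned to -0.13 without f/f replicate 1 (adjusted p = 0.517). Tmppe lies inside the Glb1 locus on the same strand, with 517, 533 and 591 counts in f/f and 401, 345 and 425 in ECKO. Glb1 had 542, 1256 and 1300 counts in f/f and 789, 927 and 899 in ECKO. The gap of f/f replicate 1 below the other f/f libraries was thus smaller in Tmppe than in Glb1. These counts are not scaled, and f/f replicate 1 had the largest total (25062755 counts).

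Of the 6 enzymes that degrade glycosaminoglycans, the sugar chains of matrix proteoglycans that LSECs clear from blood, none passed (median log2 fold change 0.10). Gusb, beta-glucuronidase, held 56.9, 65.98 and 64.5 CPM in f/f and 75.4, 73.4 and 67.1 CPM in ECKO, with all ECKO libraries above f/f (1.15-fold, interval 0.98 to 1.35, adjusted p = 0.264). Ids, iduronate sulfatase, held 69.2, 70.6 and 67.4 CPM in f/f and 83.3, 72.05 and 71.5 CPM in ECKO, also without overlap (1.09-fold, interval 0.94 to 1.28, adjusted p = 0.449). Naglu, Idua and the sulfatase Arsb had estimates of 1.05, 0.92 and 0.9-fold, with overlap.

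Sgsh, the sulfamidase of heparan sulfate breakdown, had a single low library. It held 44.5, 15.9 and 39.3 CPM in f/f and 40.5, 43.9 and 41.8 CPM in ECKO, with overlap (log2 fold change 0.34, SE 0.34, adjusted p = 0.585). Leaving out f/f replicate 2 gave 0.00 on the log2 scale (adjusted p = 0.995); the other 5 libraries lay between 39.3 and 44.5 CPM. Gaps of this size were rare: of 8682 genes with a mean of at least 10 CPM, 40 of them members, 15 (0.173%) were more than 2-fold below every other library in f/f replicate 2 and 23 (0.265%) in f/f replicate 1, the latter including Glb1 and Ctsh. Upward gaps in ECKO replicate 2 were found for 11 genes (0.127%), Ctsh among them. The most downward gaps, 30 (0.346%), were in ECKO replicate 2, and the most upward gaps, 22 (0.253%), in f/f replicate 1. No member was among these.

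Among the 8 lipid enzymes and lipid carriers none passed (median log2 fold change 0.07). Psap, precursor of the saposins that present lipids to their hydrolases, held 1571, 1718 and 1646 CPM in f/f and 1798, 1793 and 1857 CPM in ECKO, with all ECKO libraries above f/f (1.1-fold, interval 0.94 to 1.29, adjusted p = 0.408). Smpd1, acid sphingomyelinase, held 30.1, 42.3 and 39.3 CPM in f/f and 47.1, 50.02 and 41.6 CPM in ECKO (1.24-fold, interval 0.98 to 1.57, adjusted p = 0.244), where f/f replicate 2 overlapped ECKO replicate 3. Asah1, acid ceramidase, which acts on the product of Smpd1, held 144, 147 and 136 CPM in f/f and 141, 101 and 122 CPM in ECKO, with overlap (0.85-fold, interval 0.69 to 1.05, adjusted p = 0.325). The estimates of Smpd1 and Asah1 had opposite signs in each of the 14 alternative settings tried, but neither passed in any of them.

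Lipa, the acid lipase of cholesteryl esters and triglycerides, had an estimate of 1.06-fold (interval 0.86 to 1.31), and Npc2, the cholesterol carrier that hands over to NPC1, 0.98-fold (interval 0.83 to 1.15). Arsa, Ppt1 and Gm2a, a sulfatase of sulfatides, a thioesterase and the activator of GM2 breakdown, had 1.13, 0.89 and 1.04-fold, all with overlap.

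Neither of the 2 regulators passed. Tfeb held 17.6, 16.3 and 19.1 CPM in f/f and 14.98, 18.5 and 14.7 CPM in ECKO (0.91-fold, interval 0.73 to 1.14, adjusted p = 0.575), and the groups overlapped. Its activity, which is set largely by phosphorylation and nuclear entry, was not measured. Grn, progranulin, held 265, 338 and 364 CPM in f/f and 310, 412 and 293 CPM in ECKO, again with overlap (1.05-fold, interval 0.8 to 1.38, adjusted p = 0.834). The 13 members with CACGTG in a promoter window had a median log2 fold change of 0.18, ranging from -0.22 to 0.34. The 24 without it had a median of 0.06, ranging from -1.25 to 0.64; these medians are a description, and with total count scaling the signs of most of these members turn, as above.

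In the plot of change against level, the members sit mostly near 0 and toward higher levels than the bulk of genes.

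**Figure D3:**
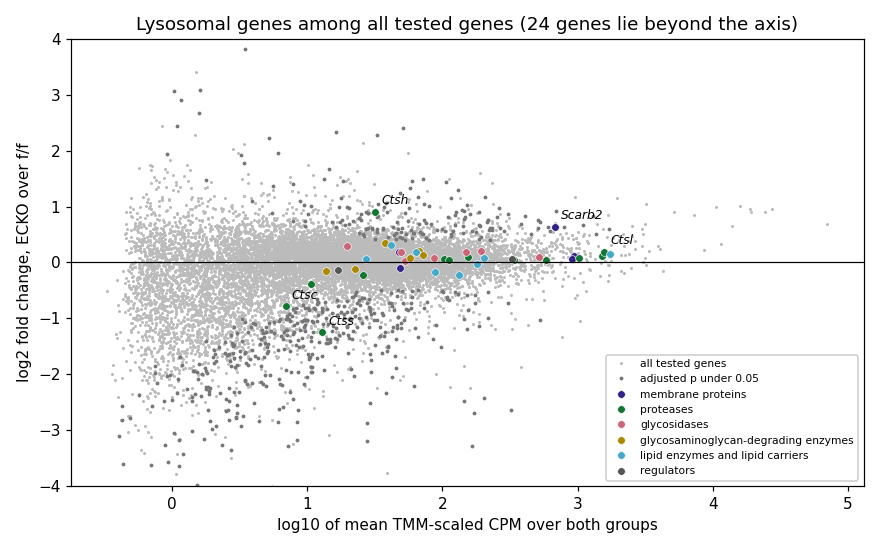
Log2 fold change (ECKO over f/f) against log10 of the mean CPM over both groups for all 13692 tested genes (light grey; dark grey where adjusted p is under 0.05) and the 41 members by role (colours); 24 genes lie beyond the axis. Scarb2 is the member among the called genes, while Ctss, Ctsc and Ctsh stand apart at lower levels.

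Per transcript length, on the deposited FPKM scale, the members ranged from Ctsl (mean 800 FPKM over the 6 libraries) to Ctsc (1.07 FPKM). The next most abundant were Psap (435), Lamp1 (419), Ctsb (320), Ctsd (268) and Lgmn (184 FPKM). In all, 9 members averaged at least 100 FPKM and 16 averaged under 10. Scarb2 ranked 9 of 41, at 101 FPKM. Tfeb ranked 40, at 1.86 FPKM, just above Ctsc. These values serve here to order the genes, not to compare the groups.

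**Figure D4:**
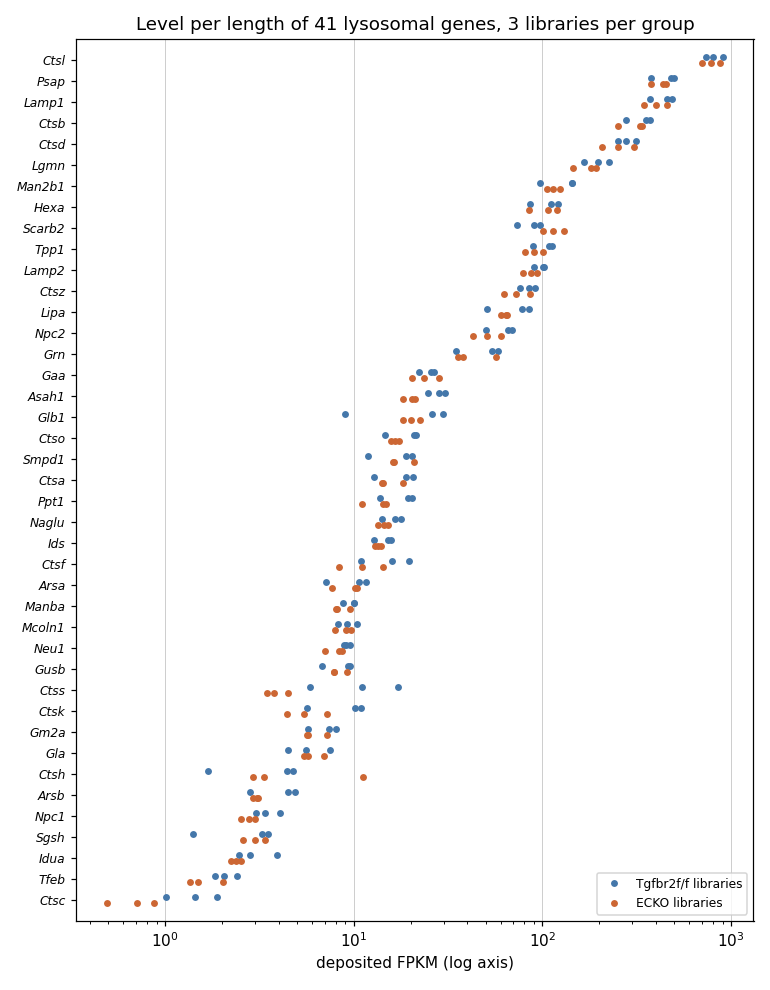
Deposited FPKM of the 41 members on a log axis, ordered by mean, with each f/f library as a blue point and each ECKO library as an orange point. Ctsl leads at 703 to 902 FPKM and Ctsc closes at 0.492 to 1.89 FPKM; the single low f/f points of Glb1 and Sgsh and the single high ECKO point of Ctsh stand apart.

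Summed over the 41 members, the level was 11330, 12296 and 11553 CPM in f/f and 12462, 12944 and 13189 CPM in ECKO, all 3 ECKO sums above the f/f sums. Psap, Ctsl, Ctsb, Ctsd, Lamp1 and Lamp2 made up 61.4% to 64.4% of this sum. Without Scarb2 the sums were 10814, 11734 and 11027 CPM in f/f and 11652, 12071 and 12372 CPM in ECKO, and the groups overlapped. As a share of all counts, the 41 members took 1.08%, 1.42% and 1.34% in f/f and 1.04%, 1.3% and 1.23% in ECKO. On that unscaled measure the groups overlapped.

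Genes of the wider lysosomal system were taken from 7 lists with 158 symbols, none of them among the 41. In these lists 3 genes rose, 2 fell and the rest of those tested did not pass, so that 5 of 150 tested genes (3.33%) were called, a share near the 4.03% of all tested genes. Of 31 further lysosomal membrane proteins (29 tested, median 0.10), none rose and Cd63 fell. Cd63, a tetraspanin of late endosomes, lysosomes and exosomes, held 41.3, 48.8 and 51.5 CPM in f/f and 16.4, 18.7 and 15.4 CPM in ECKO, without overlap (log2 fold change -1.49, SE 0.13, adjusted p = 0.00853). It passed without each library in turn (adjusted p 0.0024 to 0.0443) and in every other setting tried. In the same libraries 8 of 16 tested stellate cell markers, 4 of 7 tested B and plasma cell markers and 1 of 3 tested neutrophil markers fell. So did 1 of 12 hepatocyte markers, while 1 of 14 LSEC markers and the dendritic cell marker Clec9a rose. The median log2 fold change was -1.61 for monocyte and scar macrophage markers and -1.24 for cholangiocyte markers, with none called. It was -0.05 for Kupffer cell, 0.22 for LSEC and 0.49 for hepatocyte markers. The part of any of these cells in the level of Cd63 was not tested.

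Of 19 genes that sort enzymes to lysosomes (all tested, median 0.01), none rose and Igf2r fell. Igf2r, the large mannose 6-phosphate receptor, which also clears IGF2, held 33.9, 35.2 and 36 CPM in f/f and 22.6, 21.6 and 22.3 CPM in ECKO, without overlap (log2 fold change -0.66, SE 0.09, adjusted p = 0.0163). Its call was lost without f/f replicate 3, ECKO replicate 1 or ECKO replicate 3 (adjusted p = 0.0932, 0.0766 and 0.0718).

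Of 28 further hydrolases (all tested, median 0.03), Dpp7 rose and none fell. Dpp7, a dipeptidyl peptidase, held 45.1, 44.1 and 44.3 CPM in f/f and 57.5, 69.02 and 63.9 CPM in ECKO, without overlap (log2 fold change 0.51, SE 0.10, adjusted p = 0.0361). Without f/f replicate 2 or 3 or any 1 ECKO library its adjusted p was 0.0730 to 0.142. Of 20 V-ATPase genes (19 tested, median 0.13), which encode the proton pump that acidifies the lysosome, Atp6ap1 rose and none fell. Atp6ap1, an accessory subunit of the pump, held 167, 196 and 170 CPM in f/f and 229, 296 and 274 CPM in ECKO, without overlap (log2 fold change 0.58, SE 0.13, adjusted p = 0.0481), and missed the threshold without any 1 library (0.0639 to 0.172), with RLE size factors (0.0506) and with limma-voom (0.0597).

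Of 31 autophagy genes (all tested, median 0.17), Plekhm1 rose and none fell. Plekhm1, an adaptor for the fusion of autophagosomes with lysosomes, held 45.6, 45.8 and 44.98 CPM in f/f and 62.1, 57.6 and 60.7 CPM in ECKO, without overlap (log2 fold change 0.40, SE 0.09, adjusted p = 0.0469), and missed the threshold without any 1 library (0.0542 to 0.173), with RLE size factors (0.0506), with no filter on low counts (0.0512) and with limma-voom (0.0593). With total count scaling Dpp7, Atp6ap1 and Plekhm1 had log2 fold changes of 0.28, 0.35 and 0.16, and none passed there or on FPKM with either pseudocount. With the replicate number as a block, Dpp7 and Plekhm1 missed the threshold (adjusted p = 0.0587 and 0.0765). The part of the mix of cells in the levels of Igf2r, Dpp7, Atp6ap1 and Plekhm1 was not tested.

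None of the 20 genes of the TFEB family and the mTORC1 complex passed (all tested, median 0.05); the smallest p belonged to Fnip2, a folliculin partner (log2 fold change -0.29, SE 0.13, adjusted p = 0.211), which passed under total count scaling (log2 fold change -0.53, adjusted p = 0.0434). Of 9 inhibitors of cysteine cathepsins the filter left 4, with a median of 0.28, none called; the smallest p belonged to Ctla2b (log2 fold change 0.37, SE 0.12, adjusted p = 0.125).

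**Figure D5:**
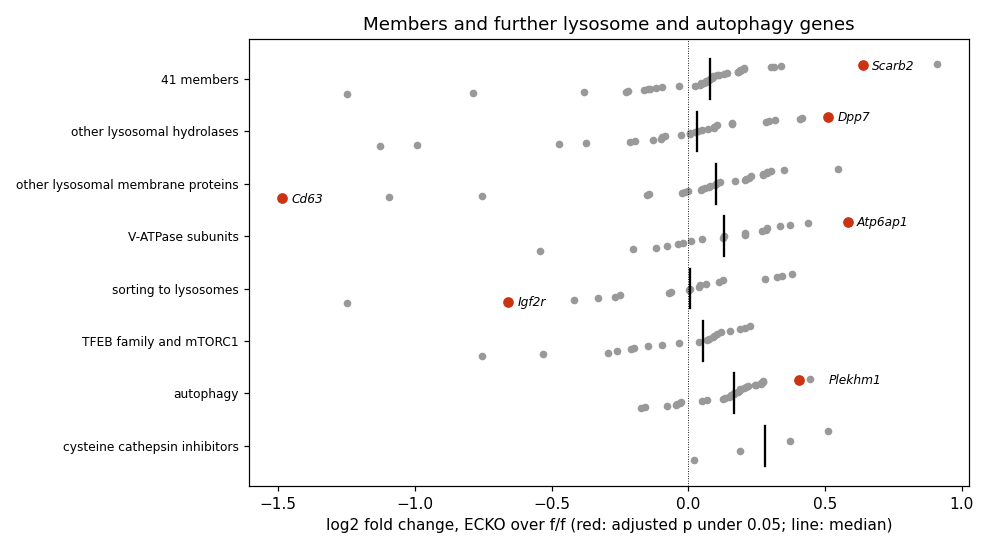
Log2 fold change (ECKO over f/f) of the tested genes of each list, with genes of adjusted p under 0.05 in red and named, and the median of each list as a line. All medians lie between 0.01 and 0.28, and the called genes are Scarb2, Dpp7, Atp6ap1 and Plekhm1 above 0 and Cd63 and Igf2r below it.

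Some members share bases with another gene, and neither labels nor headers state whether the counting used strand. By the deposited coordinates, 15 of the 41 overlap another listed gene, and for 7 that gene held at least 10% as many counts as the member: Npc1 with 3110002H16Rik, Ctsa with Pltp, Ctsz with Nelfcd, Glb1 with Tmppe, Idua with Dgkq, Ppt1 with Cap1 and Grn with Fam171a2. The shared stretch was 10 bases for Ctsz, 68 for Grn, 129 for Ppt1 and 305 for Npc1. It was 1515 bases for Ctsa, 9342 for Idua and 10106 for Glb1. Tmppe lies on the strand of Glb1, and the other neighbours of these 7 lie on the opposite strand. Reads within the shared bases could have been given to either gene. Their number is not known, so the uncertainty of these 7 was not measured. Scarb2 overlaps no other gene of the table.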

How the data were processed

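LSEC mRNA libraries of 2 groups (3 f/f, 3 labelled ECKO) were grouped and numbered by their titles. The authors deposited raw counts per gene, per the file headers, and FPKM, per the file headers. The submitters' processing notes name HISAT2 2.0.4 and StringTie 1.3.0, with no role, and 2 builds, GRCm38.p4 and mm10. The sources used here do not state which program counted reads, on which annotation and strand. Of 12 columns of values, 0 were left out.

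The tests ran in edgeR 4.0.16 (R 4.3.3). The filter filterByExpr (minimum count 10, minimum total 15) left 13692 of 34745 genes, followed by TMM scaling and the robust quasi-likelihood F-test on genotype, two-sided, with Benjamini-Hochberg adjustment over all tested genes and a threshold of 0.05. SE is the absolute log2 fold change over the square root of F, and 95% intervals use the fit's degrees of freedom. The procedure was tested on simulated counts with the same dispersion for every gene, so that test does not cover single-library gaps such as those seen here. Promoters come from RefSeq on GRCm38.p6.

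Alternatives were RLE factors, total count scaling, no filter on low counts, DESeq2 1.42.0, limma-voom (limma 3.58.1), limma on log2(FPKM + 0.1) and log2(FPKM + 1) for genes averaging at least 0.1 FPKM, leaving out each library, and a replicate block. Adding Tmppe counts to Glb1 was chosen after seeing the data. The members and lists were chosen with earlier results of these data known. All members are accounted for. Library values are given for members that passed, for at least 2 members with the smallest p in each role, and for Tfeb, Lamp1, Lamp2 and Ctsk; of each further list, genes that passed (at most 4) or else the one with the smallest p are named. Library values of Ctsh, Ctsl, Ctsb, Ctsd, Glb1, Sgsh and Psap were added after their values were seen.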

Additional observations from a re-analysis of the deposited data

How the results depend on the processing

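The 3 libraries per group and 1 contrast limit the precision, so that a 2-fold change lies inside the intervals of Ctss, Ctsc, Ctsh and Sgsh. Scarb2 kept its direction in all 14 alternatives, and 14 of the 41 members kept their sign in all of them. The cause of the changes below was not tested.

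Members higher and lower numbered 1 and 0. They were 0 and 2 under total count scaling, 0 and 0 on FPKM with either pseudocount, 1 and 1 with DESeq2, and 0 to 1 higher and 0 to 1 lower when each library was left out. Over all genes (170 higher, 382 lower) total count scaling gave 63 and 1209, DESeq2 470 and 1038, limma-voom 115 and 200, and FPKM 47 and 565 (pseudocount 0.1) or 38 and 432 (pseudocount 1). Leaving out each library gave 14 to 246 higher and 21 to 766 lower, the fewest without ECKO replicate 1 and the most without f/f replicate 1. Of the further lysosome and autophagy genes (3 higher, 2 lower), total count scaling called 0 and 6, DESeq2 5 and 5, RLE and limma-voom 1 and 2 each, and FPKM 0 and 2 with either pseudocount. Leaving out each library called 0 to 2 higher and 1 to 7 lower.

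Same-numbered libraries were not paired by the labels, and the correlations of their deviations were 0.112, 0.174 and -0.027, so the numbers were not taken as pairs. Replicates 1 and 2 of f/f correlated best with their own number, replicate 3 with ECKO replicate 2. The replicate block gave 1 member higher and 0 lower, 131 and 285 over all genes, and 1 and 2 further genes.

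Under total count scaling these estimates turned sign. They were -0.13 (Lamp1), -0.17 (Lamp2), -0.054 (Mcoln1), -0.16 (Ctsa), -0.13 (Ctsb), -0.14 (Ctsd), -0.051 (Ctsl), -0.19 (Ctso) and -0.19 (Ctsz). They were -0.19 (Lgmn), -0.19 (Tpp1), -0.036 (Hexa), -0.042 (Gaa), -0.089 (Glb1), -0.16 (Man2b1), -0.16 (Manba) and -0.20 (Neu1). They were -0.044 (Gusb), -0.12 (Ids), -0.17 (Naglu), -0.17 (Lipa), -0.10 (Psap), -0.19 (Gm2a), -0.066 (Arsa) and -0.17 (Grn). On FPKM with pseudocount 0.1 they were -0.12 (Lamp1), -0.17 (Lamp2), -0.052 (Mcoln1), -0.14 (Ctsa), -0.13 (Ctsb), -0.15 (Ctsd), -0.051 (Ctsl) and -0.17 (Ctso). They were -0.20 (Ctsz), -0.19 (Lgmn), -0.19 (Tpp1), -0.035 (Hexa), -0.050 (Gaa), -0.14 (Man2b1), -0.16 (Manba) and -0.20 (Neu1). They were -0.031 (Gusb), -0.11 (Ids), -0.16 (Naglu), -0.14 (Lipa), -0.094 (Psap), -0.18 (Gm2a), -0.048 (Arsa) and -0.17 (Grn). With pseudocount 1 they were -0.12 (Lamp1), -0.17 (Lamp2), -0.047 (Mcoln1), -0.14 (Ctsa), -0.13 (Ctsb), -0.15 (Ctsd), -0.051 (Ctsl) and -0.16 (Ctso). They were -0.19 (Ctsz), -0.19 (Lgmn), -0.19 (Tpp1), -0.035 (Hexa), -0.048 (Gaa), -0.14 (Man2b1), -0.14 (Manba) and -0.18 (Neu1). They were -0.030 (Gusb), -0.10 (Ids), -0.15 (Naglu), -0.14 (Lipa), -0.093 (Psap), -0.16 (Gm2a), -0.045 (Arsa) and -0.17 (Grn).

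When each library was left out, 10 members turned sign, none of them called. The ranges were -0.013 to 0.18 (Ctsa), -0.0063 to 0.13 (Ctso) and -0.0078 to 0.086 (Ctsz). They were -0.021 to 0.11 (Lgmn), -0.13 to 0.45 (Glb1) and -0.052 to 0.16 (Neu1). They were -0.20 to 0.033 (Idua) and -0.026 to 0.18 (Lipa). They were -0.091 to 0.024 (Npc2) and -0.091 to 0.17 (Grn). Summing Glb1 with Tmppe gave 0.12 (adjusted p = 0.780).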
